A study of Homo sapiens with 15 samples.

Results

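Gene expression in the human neuroblastoma line SH-SY5Y was set against that in NGP, over all genes named on the array. The 3 arrays labelled SH-SY5Y and the 3 labelled NGP were chosen by their labelled cell line, 6 of the 15 arrays of a series that also holds 3 arrays each of SK-N-AS, BE(2)-C and KELLY. All are established neuroblastoma lines, grown as untreated cultures in DMEM with fetal bovine serum. The cells were counted before total RNA was isolated, the ERCC controls (synthetic RNAs of known amount) went into the lysis step, and the RNA was labelled with biotin for Affymetrix arrays. SH-SY5Y is a subclone of the line SK-N-SH and is known as a line of adrenergic, neuroblast-like cells without amplified MYCN. NGP is known to carry amplified MYCN together with gains of CDK4 and MDM2. Copy number was not measured on these arrays. Each MYCN status is held here by 1 line, so line and MYCN status cannot be told apart, and the replicate numbers of the labels do not say that the arrays came from separate cultures. P-values therefore measure the spread between these arrays, which may be technical.

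Neuroblastoma arises from cells of the sympathetic nervous system, which make noradrenaline from tyrosine and keep it in secretory granules. Its adrenergic state is held by a set of transcription factors that includes GATA2, GATA3, PHOX2A, HAND2, ISL1 and TFAP2B. MYC and MYCN are related transcription factors that bind, with MAX, to the E-box sequence CACGTG, and cells that make much of one often make little of the other.

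The values are deposited intensities, 1 for each probe set and array, and depth in reads does not apply to them. Each gene was represented by its probe set of highest mean intensity. A gene was tested where its highest line mean reached an intensity of 80.6, the median of all values, and 12721 of 18244 genes did. The median intensity of an array was 54.4 ± 2.65 in SH-SY5Y and 76.8 ± 2.98 in NGP (SD, n = 3 each), while the ERCC probe sets had nearly equal medians of 8.91 and 9.04 on the log2 scale. The median gene thus lay 0.52 lower in SH-SY5Y on the log2 scale of the deposited values (a difference of -0.52). With equal ERCC medians the median difference was -0.39, and how the arrays were scaled is not given. A lower deposited level can stand for less RNA per cell or for fewer cells in the lysate, and these cannot be told apart in bulk samples. For this reason differences are given with each array centred on its median tested gene, and calls also on the deposited scale. Arrays of SH-SY5Y correlated at 0.993 to 0.995 with each other, arrays of NGP at 0.995 to 0.996, and arrays of different lines at 0.866 to 0.871. The 3' minus 5' difference of the control probe sets, a sign of RNA quality, was 1.10 ± 0.20 in SH-SY5Y and 1.23 ± 0.08 in NGP for ACTB, and 0.35 ± 0.03 in SH-SY5Y and 0.24 ± 0.05 in NGP for GAPDH (log2, SD, n = 3 each). Its part in the results was not tested.

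Many genes differed between the lines, in both directions. A gene was called where limma gave a Benjamini-Hochberg adjusted p under 0.05, the log2 difference was at least 1 and the brighter line reached 80.6. By this rule 921 genes were higher in SH-SY5Y and 968 lower on the centred scale, which is 7.24% and 7.61% of the 12721 tested. On the deposited scale 469 genes were higher, or 3.69%, and 2306 lower, or 18.1%. Counts called in the lists and runs below are to be read beside these shares on the same scale. Higher genes made up 48.8% of the calls on the centred scale and 16.9% on the deposited scale. All 469 genes higher as deposited were among the 921, and all 968 genes lower after centring were among the 2306. The other 452 of the 921 genes, those within about 0.52 of the threshold of 1, were called higher after centring only. Only some of these are marked below. No gene had calls of opposite sign. Differences of 4 or more on the log2 scale, 16-fold or more, were called for 77 genes higher and 49 lower in SH-SY5Y. The 6 arrays of the pair did not overlap for 920 of the 921 genes called higher and 966 of the 968 called lower, and they did not overlap for 68.5% of all tested genes either. Where one line lies below 80.6, the size of a difference rests on dim values and is not an exact fold. Calls that ended when a gene's probe sets were averaged, when probe sets ending in _s_at or _x_at (which can match several transcripts) were left out, with a pseudocount of 16 or without 1 array are named beside their group. Where the value printed for such a lost call is still beyond 1 or -1, the call ended because neither line then reached the brightness asked for.

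**Figure D1:**
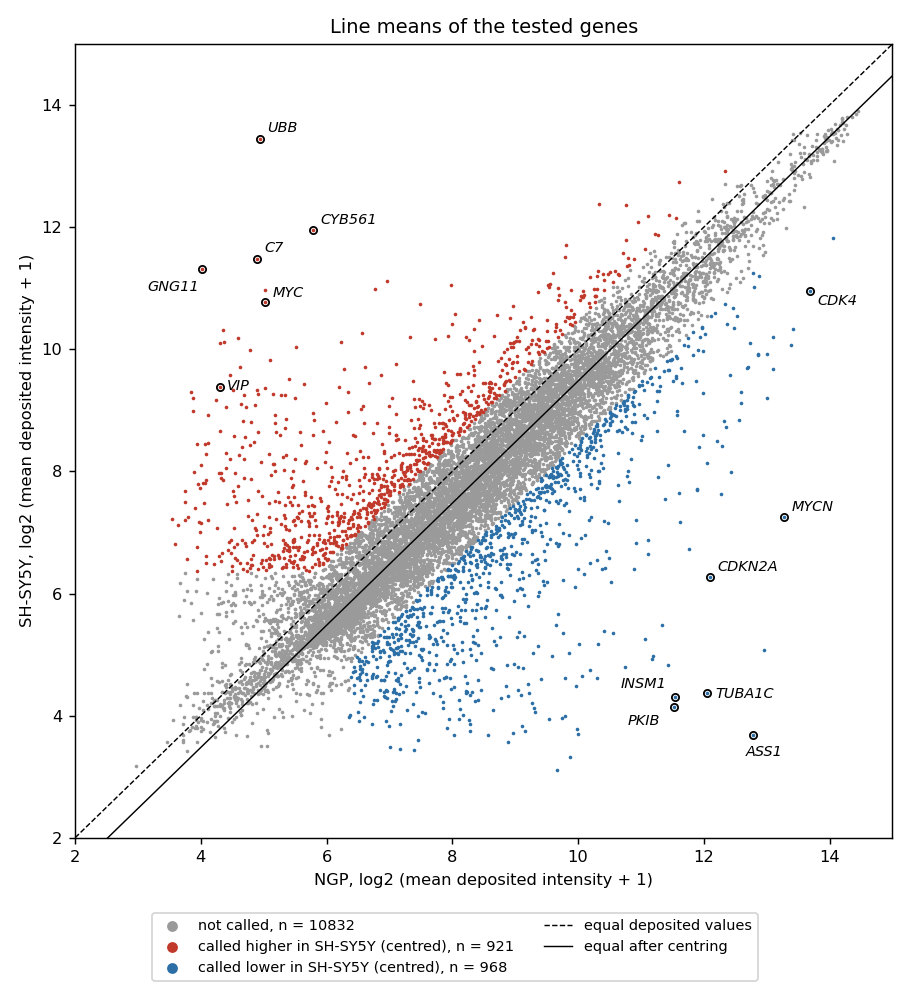
Line means of the 12721 tested genes, NGP on the x axis and SH-SY5Y on the y axis, both as log2 of the mean deposited intensity plus 1. Red points were called higher and blue points lower in SH-SY5Y after centring, the dashed line marks equal deposited values, and the solid line, shifted by -0.52, marks equal values after centring. UBB stands farthest above the lines and ASS1 farthest below.

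The widest fitted difference was in UBB, one of the genes that encode ubiquitin, the small protein that marks other proteins for breakdown. UBB had 12183, 10041 and 11237 on the SH-SY5Y arrays, against 31.0, 29.1 and 28.7 on the NGP arrays. All 3 NGP values lay below the median of all values, and the groups were far apart. The fitted difference was 9.03 on the log2 scale (moderated SE 0.06, limma adjusted p = 1.32e-23), and a further UBB probe set gave 9.52. UBB stood at 19850 ± 1311 in SK-N-AS, 22832 ± 494 in BE(2)-C and 1103 ± 60.8 in KELLY, so NGP was the line without a bright UBB signal.

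The promoters of the genes with the widest difference in each direction, UBB and ASS1, are shown as the 250 bases before the start site on the gene's strand (RefSeq, GRCh38.p14). Both lack the E-box CACGTG, which is written in capitals where a promoter holds it.
UBB, chr17:16381040-16381289, plus strand: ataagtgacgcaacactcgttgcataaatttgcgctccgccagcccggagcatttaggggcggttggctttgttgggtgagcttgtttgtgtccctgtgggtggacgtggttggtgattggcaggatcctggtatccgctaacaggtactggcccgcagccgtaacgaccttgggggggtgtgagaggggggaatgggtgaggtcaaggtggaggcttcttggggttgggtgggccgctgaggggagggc
ASS1, chr9:130444457-130444706, plus strand: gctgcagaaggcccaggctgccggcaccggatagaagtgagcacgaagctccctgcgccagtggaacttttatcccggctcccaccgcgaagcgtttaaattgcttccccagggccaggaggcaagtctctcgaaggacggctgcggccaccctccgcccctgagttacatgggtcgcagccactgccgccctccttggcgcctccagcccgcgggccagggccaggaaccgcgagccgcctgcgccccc

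ASS1 encodes argininosuccinate synthase, the enzyme that lets cells make arginine from citrulline. It had 14.3, 8.76 and 12.7 in SH-SY5Y, against 6367, 7763 and 7043 in NGP. The difference was -8.60 (moderated SE 0.11, limma adjusted p = 1.67e-19) and a further probe set gave -7.04. SK-N-AS at 7096 ± 215, BE(2)-C at 6788 ± 1105 and KELLY at 1706 ± 129 all had a bright signal, so SH-SY5Y was the dim line for this gene.

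After UBB, the genes highest in SH-SY5Y included regulators of signalling, complement and chromatin. GNG11, a G protein gamma subunit, had 2720, 2288 and 2606 in SH-SY5Y, against 18.5, 12.9 and 14.3 in NGP (7.82). C7, a component of the complement attack complex, had 2955, 2518 and 3077 in SH-SY5Y, against 26.0, 33.5 and 26.6 in NGP (7.11). These and the next genes had no overlap between the arrays of the lines. SMARCA2, an ATPase of the SWI/SNF chromatin remodelling complex, had 783, 711 and 801 in SH-SY5Y, against 17.9, 26.4 and 18.7 in NGP (5.66), and its 6 further probe sets gave 2.76 to 6.01. SGK1, a kinase induced by serum and glucocorticoids, differed by 6.11 and S100A6, a calcium-binding protein, by 5.76. SMARCA2 was also lower in the other 3 lines than in SH-SY5Y, at 201 ± 17.7 in SK-N-AS, 99.4 ± 10.7 in BE(2)-C and 21.0 ± 1.33 in KELLY. TSPYL5 (6.53), RAB4A, a GTPase of endosome recycling (6.32), CEP15 (6.27), NUDT19 (5.99), ZC3HAV1L (5.83), ARMCX2 (5.67) and SLC36A4, an amino acid transporter (5.63), complete the 15 widest differences upward with CYB561 and MYC, described below. RAB4A, CEP15, NUDT19, ZC3HAV1L and SLC36A4 were above 400 in each of the 3 other lines, and at 29.2 or less on each NGP array. With averaged probe sets ZC3HAV1L was not called (2.61).

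Among the genes lowest in SH-SY5Y were cytoskeletal and lineage genes. TUBA1C, an alpha-tubulin, had 20.6, 18.3 and 20.3 in SH-SY5Y, against 4125, 4221 and 4354 in NGP (-7.16). Alpha-tubulin genes are near copies of each other, so probe sets may share signal, yet a further TUBA1C probe set gave -6.23. PKIB, an inhibitor of protein kinase A, had 17.8, 15.2 and 17.0 in SH-SY5Y, against 2948, 3347 and 2589 in NGP (-6.87), and stood at 258 ± 32.0 or less in the other lines. NRIP1, a corepressor of nuclear receptors, had 8.09, 7.79 and 6.99 in SH-SY5Y, against 774, 803 and 849 in NGP (-6.04). CEBPD, a transcription factor of the C/EBP family, had 9.33, 8.13 and 9.61 in SH-SY5Y, against 977, 906 and 932 in NGP (-6.03). NRIP1 was bright in each of the other lines, whereas CEBPD was at 9045 ± 704 in SK-N-AS, 23.9 ± 3.11 in BE(2)-C and 40.0 ± 2.80 in KELLY. FABP6, a bile acid binding protein (-6.09), PRUNE2 (-5.80), CYRIA (-5.70), SERPINE2, a secreted protease inhibitor (-5.34), and GTSF1, a factor of the germline piRNA pathway (-5.29), were also among the 15 lowest, with INSM1, IGF2BP1, MYCN, PRPH and CDKN2A below.

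**Figure D2:**
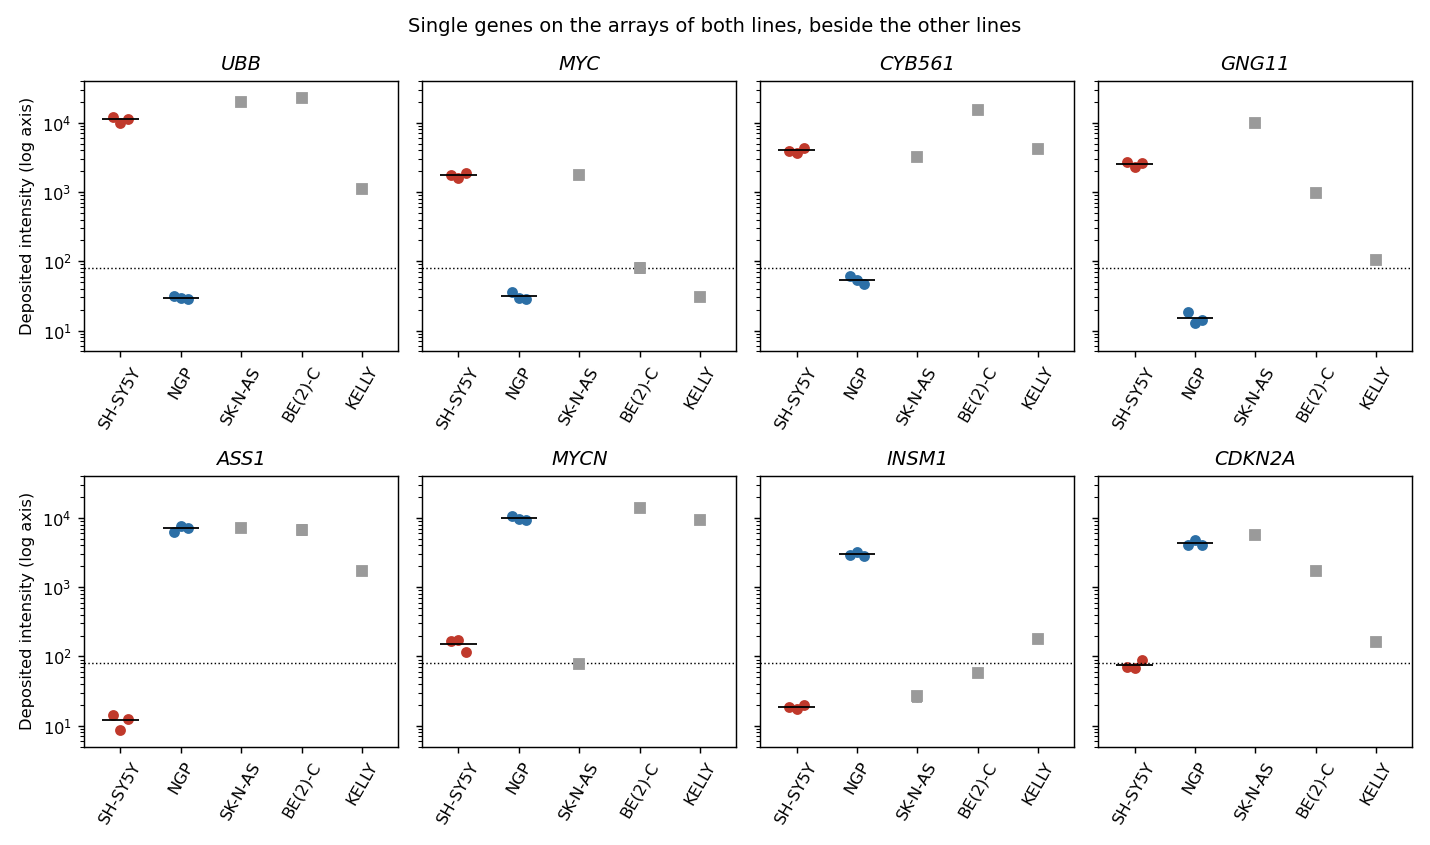
Deposited intensity, on a log axis, of 8 genes. Points are single arrays of SH-SY5Y (red) and NGP (blue) with their mean as a bar, grey squares are the mean ± SD of the 3 arrays of each other line, and the dotted line is the median of all values, 80.6. UBB, MYC, CYB561 and GNG11 are bright in SH-SY5Y and below the dotted line in NGP. In the lower row ASS1, MYCN, INSM1 and CDKN2A are bright in NGP and dimmer in SH-SY5Y. In SH-SY5Y, ASS1 and INSM1 lie below the dotted line and MYCN above it (168, 171 and 117). CDKN2A lies on both sides of the line there (70.0, 68.6 and 90.2).

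The lines held opposite members of the MYC family. MYC had 1763, 1593 and 1883 in SH-SY5Y, against 36.2, 29.6 and 28.8 in NGP, a difference of 6.27 (moderated SE 0.10, limma adjusted p = 1.24e-18). MYCN had 168, 171 and 117 in SH-SY5Y, against 10622, 9690 and 9463 in NGP, a difference of -5.52 (moderated SE 0.12, limma adjusted p = 4.78e-17). SH-SY5Y was thus the brighter line for MYC and NGP for MYCN, with no overlap of arrays. The 3 further MYCN probe sets gave -6.60 to -2.85. MYCL, the remaining member, stood at 77.4 ± 5.12 in SH-SY5Y and 242 ± 14.6 in NGP (-1.12). Of 14 tested genes of the family and its partners, 1 was higher and 4 lower in SH-SY5Y, with a median of -0.38. The 4 were MYCN, MYCL and a pair of genes for partners in the MLX network, MLXIP at 341 ± 48.4 in SH-SY5Y and 4976 ± 202 in NGP (-3.36) and MLX at 413 ± 48.5 in SH-SY5Y and 1225 ± 63.6 in NGP (-1.05). Of 12 tested genes listed for the region of MYCN on chromosome 2, CYRIA, TRIB2 (-1.62), NBAS (-1.10) and VSNL1 (-1.10) were lower and KLF11 (1.89) was higher. DDX1, next to MYCN in the gene order, was not called (-0.46). The running median at MYCN was -0.52, and the scan of neighbouring genes below gave no run there. The KLF11 call was lost with averaged probe sets (0.88) and without _s_at and _x_at probe sets (0.13), that of VSNL1 with averaged probe sets (-0.98), that of MYCL with a pseudocount of 16 (-0.98) and that of NBAS without SH-SY5Y replicate 2.

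Of 8 tested oncofetal genes 3 were lower in SH-SY5Y and 0 higher, with a median of -0.87. LIN28B, an inhibitor of let-7 microRNA processing, had 240, 221 and 266 in SH-SY5Y, against 1822, 1740 and 1684 in NGP (-2.33). IGF2BP1, which binds and stabilizes mRNAs in the embryo, had 31.0, 25.2 and 31.5 in SH-SY5Y, against 2363, 2398 and 2182 in NGP (-5.74). HMGA1, a chromatin protein, differed by -1.21. The list was put together with results of the other lines in view.

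The E-box CACGTG, the same on both strands, lay in the 250 bases before the start site of 6.84% of the genes called higher in SH-SY5Y (52 of 760 with a promoter in the table) and 11% of those called lower (82 of 747). It lay in 8.95% of tested genes (931 of 10408) and in 6.49% of all promoters of the table (1772 of 27305). A match says only that these letters are present. The promoter of MYCN held 0. CDK4 stood at 1983 ± 255 in SH-SY5Y and 13222 ± 1078 in NGP. KELLY, with MYCN at 9363 ± 163, had CDK4 at 1825 ± 89.2. BE(2)-C, with MYCN at 13689 ± 526, had CDK4 at 4899 ± 251. SK-N-AS, with MYCN at 78.8 ± 6.30, had CDK4 at 5913 ± 430. Any part of the E-boxes in the level of CDK4 was not tested. CDK4, one of the called genes, held 3 E-boxes, whose first bases lie at -216, -196 and -101 from the start site. Its promoter is shown for them, with the E-boxes in capitals.
CDK4, chr12:57752311-57752560, minus strand: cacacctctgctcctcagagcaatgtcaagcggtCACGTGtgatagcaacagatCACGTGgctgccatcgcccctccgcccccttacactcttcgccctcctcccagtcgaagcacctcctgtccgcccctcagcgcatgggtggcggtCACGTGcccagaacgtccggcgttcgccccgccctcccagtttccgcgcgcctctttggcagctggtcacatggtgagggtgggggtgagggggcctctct

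CDK4 and MDM2, the known gained genes of NGP, were both lower in SH-SY5Y, and so were 10 of 20 and 8 of 14 tested genes listed for their neighbourhoods on chromosome 12. CDK4, the kinase that drives cells through G1 with D-type cyclins, had 2098, 1690 and 2159 in SH-SY5Y, against 13623, 14042 and 12000 in NGP, a difference of -2.22 (moderated SE 0.06, limma adjusted p = 1.27e-15). MDM2, the ubiquitin ligase that keeps p53 low, had 136, 141 and 143 in SH-SY5Y, against 814, 802 and 873 in NGP, a difference of -2.04 (moderated SE 0.07, limma adjusted p = 6.34e-14). NGP was the brightest of the 5 lines for both, the next being SK-N-AS with 5913 ± 430 for CDK4 and 287 ± 8.04 for MDM2. None of either list was called higher, and the median of the MDM2 list was -1.87. These lists were drawn up with the result in NGP known. ATP23 (-4.12), EEF1AKMT3 (-3.47), METTL1, a tRNA methyltransferase (-3.33), TSFM, a mitochondrial translation factor (-3.28), CTDSP2 (-2.47) and TSPAN31 (-2.47) were lower beside CDK4. SLC35E3 (-3.03), CNOT2, a subunit of the CCR4-NOT deadenylase (-2.79), YEATS4, a histone reader (-2.76), CPM (-2.68), NUP107, a nucleoporin (-2.39), and RAP1B, a small GTPase (-2.31), were lower beside MDM2.

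A scan of neighbouring genes showed both regions on chromosome 12 and a wider one farther along it. The running median of the centred difference was taken over 15 neighbouring tested genes, and a run was 5 or more windows at 1 or beyond. It gave 11 runs, of which 4 were lower and 7 higher in SH-SY5Y. The CDK4 run spanned 25 genes, 12 of them lower and 0 higher, and its lowest window was at -2.39. The MDM2 run spanned 22 genes, 8 lower and 2 higher, and its lowest window was at -1.71. LGR5, a receptor of the WNT pathway at the end of that span, was higher, at 503 ± 47.5 in SH-SY5Y and 80.3 ± 2.78 in NGP (3.15). The widest run, between UNC119B and DDX55, held 30 windows, spanned 44 genes with 29 lower and 0 higher, and reached -2.52. TMEM120B had 108, 84.7 and 106 in SH-SY5Y, against 2350, 2234 and 2089 in NGP (-3.96). VPS33A, a subunit of endosome tethering complexes, had 211, 183 and 227 in SH-SY5Y, against 3919, 3898 and 3584 in NGP (-3.68). MTRFR, a mitochondrial release factor (-3.40), and MLXIP also lay in it, and the arrays did not overlap for these genes. On chromosome 22, 10 of 21 genes from SNU13 to SCUBE1 were lower and 1 higher. NDUFA6, a subunit of respiratory complex I, at 698 ± 51.5 in SH-SY5Y and 3230 ± 105 in NGP (-1.69), and ARFGAP3 (-1.62) were among the lower, and TSPO (1.47) was the higher one. As deposited 13 of the 21 genes were lower and 0 higher, so TSPO was not called on that scale. ARFGAP3 was not called without _s_at and _x_at probe sets (-0.58).

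**Figure D3:**
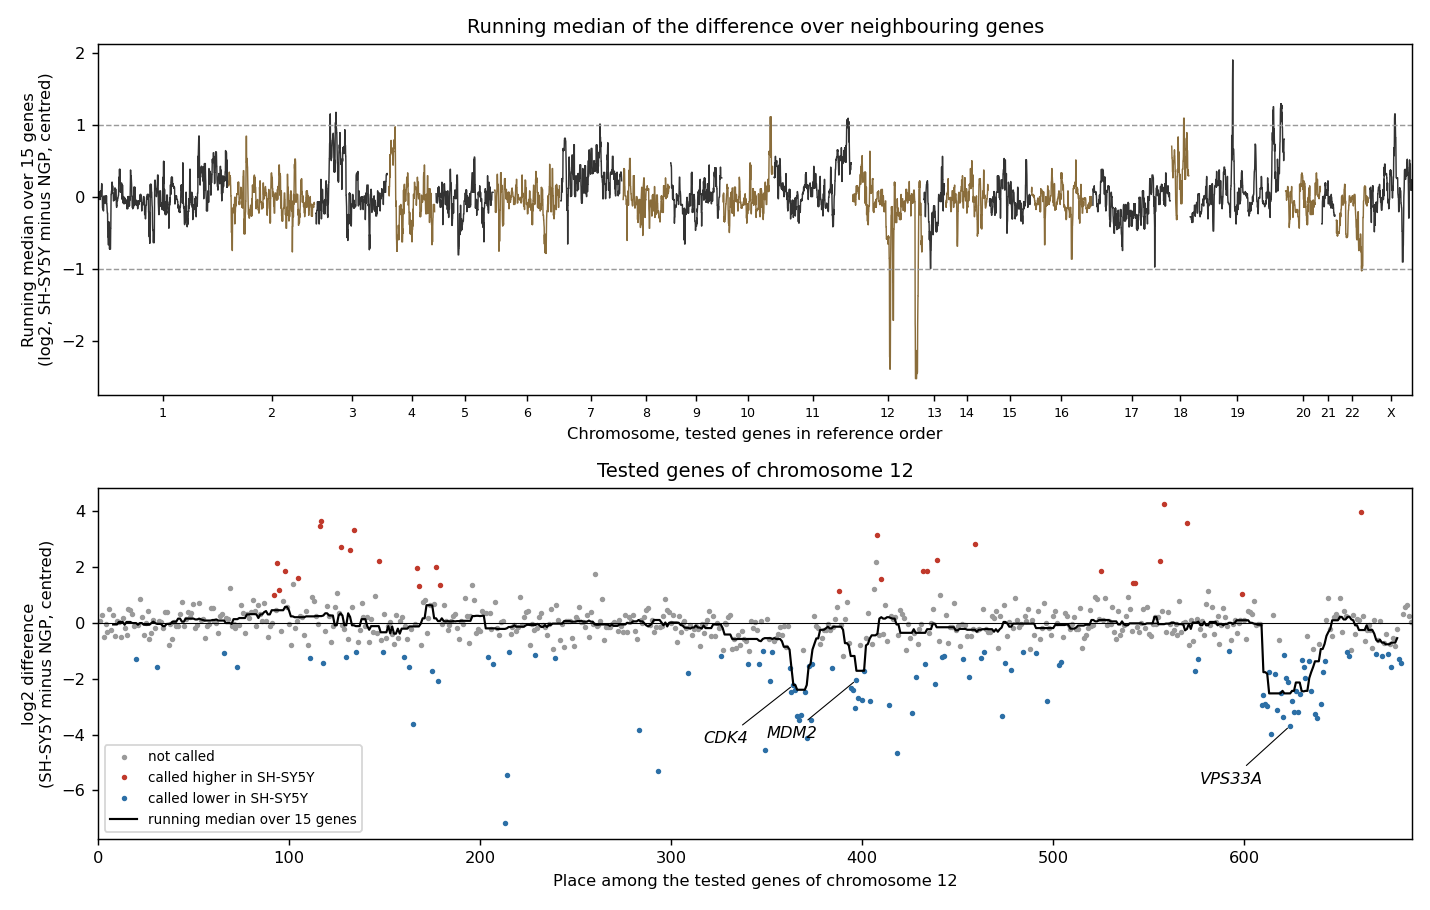
Upper panel: running median over 15 neighbouring tested genes of the centred log2 difference, SH-SY5Y minus NGP, with genes in reference order by chromosome and dashed lines at 1 and -1. Lower panel: the tested genes of chromosome 12, each a point, with the running median as a line. The 3 dips of chromosome 12, to -2.39, -1.71 and -2.52, hold CDK4, MDM2 and VPS33A.

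The runs higher in SH-SY5Y lay on chromosomes 10, 11, 18, 19 and X. On chromosome 19 there were 3 runs of zinc finger genes, whose products with a KRAB domain silence transposable elements. They spanned 19, 24 and 34 genes, with 10, 10 and 14 higher and 0 lower, and as deposited 10, 5 and 6 higher. Over the whole chromosome, 45 of 175 tested ZNF genes were higher and 0 lower, with a median of 0.56. On the deposited scale 25 were higher and 4 lower, with a median of 0.04. These genes were dim, with a median level of 6.59 on the log2 scale, near the threshold of 6.35. ZNF320 stood at 353 ± 34.1 in SH-SY5Y and 16.3 ± 0.429 in NGP (4.87). ZNF83 had 224, 212 and 178 in SH-SY5Y, against 13.6, 13.6 and 10.3 in NGP (4.45), so both were well apart from the NGP arrays. ZNF726 (4.29), ZNF826P (4.25), ZNF415 (3.76), ZNF681 (3.71), ZNF264 (3.58), ZNF91 (2.97) and ZNF667 (2.43) were also called. Zinc finger genes resemble each other, so probe sets may share signal. ZNF264 was not called with averaged probe sets (2.33), nor ZNF91 without _s_at and _x_at probe sets (1.93), since neither line then reached the brightness asked for. The list was set up by symbol and chromosome after the runs had been seen.

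On chromosome X the higher run spanned 23 genes, 11 higher and 0 lower (8 and 1 as deposited), and held ARMCX, TCEAL and GPRASP genes, families of related genes side by side. ARMCX2 had 499, 533 and 482 in SH-SY5Y, against 18.5, 12.3 and 10.0 in NGP (5.67). ARMCX1 (4.54), TCEAL5 (4.26) and TCEAL2 (4.16) were higher too. On chromosome 10, 8 of 21 genes were higher and 1 lower (2 and 1 as deposited). DOCK1, an activator of the GTPase RAC, differed by 4.58 and ADAM12, a membrane metalloprotease, by 3.92. EBF3, a transcription factor, was the lower one there (-3.85), and without _s_at and _x_at probe sets its difference was -0.20 and not called. On chromosome 11, 11 of 22 genes were higher and 0 lower (5 and 0 as deposited). SPA17, a sperm surface protein, differed by 4.35, FEZ1, an axonal transport adaptor, by 3.70, and HYLS1, a centriole protein, by 3.31. On chromosome 18, 10 of 21 genes were higher and 0 lower (4 and 1 as deposited). They included TCF4, a partner of neurogenic bHLH factors, with 4362 in SH-SY5Y and 1989 in NGP (1.65), ELAC1 (1.76), POLI, a DNA polymerase (1.69), and MBD1, a methyl-DNA binding protein (1.52), which was not called with averaged probe sets (0.84).

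Other cell cycle genes differed singly. CDKN2A, which encodes p16 and p14ARF, had 70.0, 68.6 and 90.2 in SH-SY5Y, against 4125, 4854 and 4130 in NGP (-5.31). CDKN1A, the p53 target p21, stood at 222 ± 24.5 in SH-SY5Y and 1180 ± 109 in NGP (-1.89). CDKN1C, an imprinted CDK inhibitor, had 516, 584 and 523 in SH-SY5Y, against 19.7, 31.4 and 33.3 in NGP (4.77), the reverse order. CCND1, cyclin D1, was not called, with 3270 ± 220 in SH-SY5Y and 2942 ± 177 in NGP (0.67). Of 19 tested G1 genes 1 was higher and 3 lower. Of 23 tested p53 targets 2 were higher and 3 lower, with a median of 0.15, and on the deposited scale 1 and 7. On that scale 3.69% of all tested genes were higher and 18.1% lower. TNFRSF10B, the death receptor DR5, was the higher one with the widest difference, at 552 ± 38.2 in SH-SY5Y and 23.9 ± 1.55 in NGP (4.99), and PLK2 was lower (-1.20). Neither was called without _s_at and _x_at probe sets, with 0.62 for TNFRSF10B and -0.36 for PLK2, and PLK2 was not called with averaged probe sets (-0.68). In mitosis and DNA replication 1 of 23 was higher, TYMS, the target of fluorouracil (1.59), and 1 lower, AURKB, a mitotic kinase (-1.13).

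Genes of catecholamine synthesis, transport and breakdown had the highest share of members called higher among lists with at least 8 tested members. Of 15 tested 8 were higher in SH-SY5Y and 0 lower, with a median of 1.01, and on the deposited scale 5 were higher and 1 lower. CYB561, which regenerates ascorbate in the granules, had 3959, 3654 and 4307 in SH-SY5Y, against 60.8, 54.5 and 46.6 in NGP (6.70, moderated SE 0.06, limma adjusted p = 4.96e-21). DBH, which turns dopamine into noradrenaline, had 2492, 2161 and 2653 in SH-SY5Y, against 759, 825 and 750 in NGP (2.16). For both genes every SH-SY5Y array lay above every NGP array. MAOB, which breaks down amines, differed by 2.73, SLC18A1, a vesicular amine transporter, by 2.21, and SLC6A2, the noradrenaline transporter, by 2.04. SPR, PTS and PNMT made up the 8 (1.31, 1.14 and 1.01), and were not called on the deposited scale, nor was SPR with averaged probe sets (0.79). TH, the rate-limiting enzyme of the pathway, was dim in both lines and not called, with 109, 77.8 and 86.2 in SH-SY5Y and 136, 107 and 133 in NGP (0.06, limma adjusted p = 6.87e-01). TH stood at 776 ± 59.1 in BE(2)-C and 1463 ± 31.5 in KELLY. DDC, the next enzyme, was not called either (0.87).

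Of the factors of adrenergic identity most were not called, yet the share called higher lay above that of all tested genes. Of 23 tested 5 were higher (21.7%) and 2 lower (8.70%), beside 7.24% and 7.61% of all tested genes. Their median was 0.47, and on the deposited scale 3 were higher and 6 lower. TFAP2B had 3842, 2783 and 3377 in SH-SY5Y, against 949, 828 and 901 in NGP (2.41). GATA2 stood at 6803 ± 489 in SH-SY5Y and 3108 ± 58.4 in NGP (1.65), and LMO3, a cofactor linked to neuroblastoma, at 555 ± 70.9 in SH-SY5Y and 62.7 ± 11.1 in NGP (3.65). LMO1 (1.41) and EYA1 (1.04) were called on the centred scale but not as deposited. HAND2, GATA3, ISL1 and PHOX2A were not called, with differences of 0.13, 0.77, 0.56 and 0.76. INSM1, a zinc finger factor of neuroendocrine cells, went the other way by a wide margin, with 18.8, 17.7 and 19.7 in SH-SY5Y, against 2897, 3193 and 2857 in NGP (-6.72). INSM1 stood at 176 ± 6.61 or less in the 3 other lines, so NGP was the bright line. DACH1 was lower as well (-2.62). Of 21 mesenchymal factors 0 were higher and 3 lower, SIX4 (-3.20), PRRX1 (-1.79) and MAML2, a coactivator of NOTCH (-1.61), and PRRX1 and MAML2 stood at 124 or less in both lines. PRRX1 was not called without _s_at and _x_at probe sets (-0.75), nor were MAML2 (-0.75) and EYA1 (0.70) with averaged probe sets, or EYA1 with a pseudocount of 16 (0.98).

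Neuropeptide genes were more often called higher than lower in SH-SY5Y. Of 20 tested peptide and receptor genes 7 were higher and 2 lower, with a median of 0.37, and on the deposited scale 6 and 4. NPY, neuropeptide Y, had 1541, 1415 and 1605 in SH-SY5Y, against 266, 277 and 246 in NGP (3.05). VIP, vasoactive intestinal peptide, had 702, 642 and 667 in SH-SY5Y, against 23.1, 15.3 and 17.8 in NGP (5.63). Every SH-SY5Y array lay above every NGP array for both peptides. NPFFR2, a neuropeptide FF receptor (4.16), NMU, neuromedin U (3.39), VGF, a granule protein induced by nerve growth factor (2.03), and NMB, neuromedin B (1.55), were higher. SSTR2, the somatostatin receptor used for imaging of neuroendocrine tumours, was lower, with 36.2 ± 1.04 in SH-SY5Y and 402 ± 30.4 in NGP (-2.92), and so was NPPC (-1.03). NPPC was not called without SH-SY5Y replicate 2 (-0.96), SH-SY5Y replicate 3 (-0.93) or NGP replicate 1 (-0.98), nor with a pseudocount of 16 (-0.70). Galanin, GAL, was not called, with 3752 ± 180 in SH-SY5Y and 4609 ± 165 in NGP. Of 23 granule genes 3 were higher and 2 lower, and on the deposited scale 3 and 7. SCG5, a chaperone of prohormone convertase (3.88), SV2C (1.92) and SYT4 (1.84) were higher, and CADPS, a priming factor of dense core vesicles (-1.78), and RAB3A (-1.02) lower. RAB3A was not called without SH-SY5Y replicate 2 (-0.95) or NGP replicate 2 (-0.98), with averaged probe sets (-0.93) or with a pseudocount of 16 (-0.94). CHGA, chromogranin A, stood at 5858 ± 491 in SH-SY5Y and 6013 ± 486 in NGP and was not called (0.48). CHGB, chromogranin B, stood at 1729 ± 135 in SH-SY5Y and 3887 ± 115 in NGP. It was not called after centring (-0.65) and was called lower as deposited (-1.17).

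Neuronal genes were split. Of 32 tested 7 were higher and 5 lower, with a median of 0.11, and on the deposited scale 2 were higher and 9 lower. STMN4, a microtubule regulator (2.51), and NRCAM, a cell adhesion molecule (1.70), were higher on both scales. STMN2, ELAVL4, RTN1 and NCAM1 were higher by 1.10 to 1.30 after centring and not called as deposited, and 1 of 2 further NCAM1 probe sets had the opposite sign. NCAM1 (0.43) and STMN2 (0.82) were not called with averaged probe sets. PRPH, peripherin, an intermediate filament of peripheral neurons, had 28.7, 23.3 and 28.4 in SH-SY5Y, against 1608, 1949 and 1600 in NGP (-5.43). PRPH was at 973 ± 96.2 or more in the 3 other lines, so SH-SY5Y was the dim line. NEFH, a neurofilament (-1.52), ELAVL2, an RNA-binding protein (-1.39), and NRN1 (-1.11) were lower too. Of 11 cholinergic genes CHRM3, a muscarinic receptor, was higher (1.58) and CHRNA1, a nicotinic receptor subunit, lower (-1.85).

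**Figure D4:**
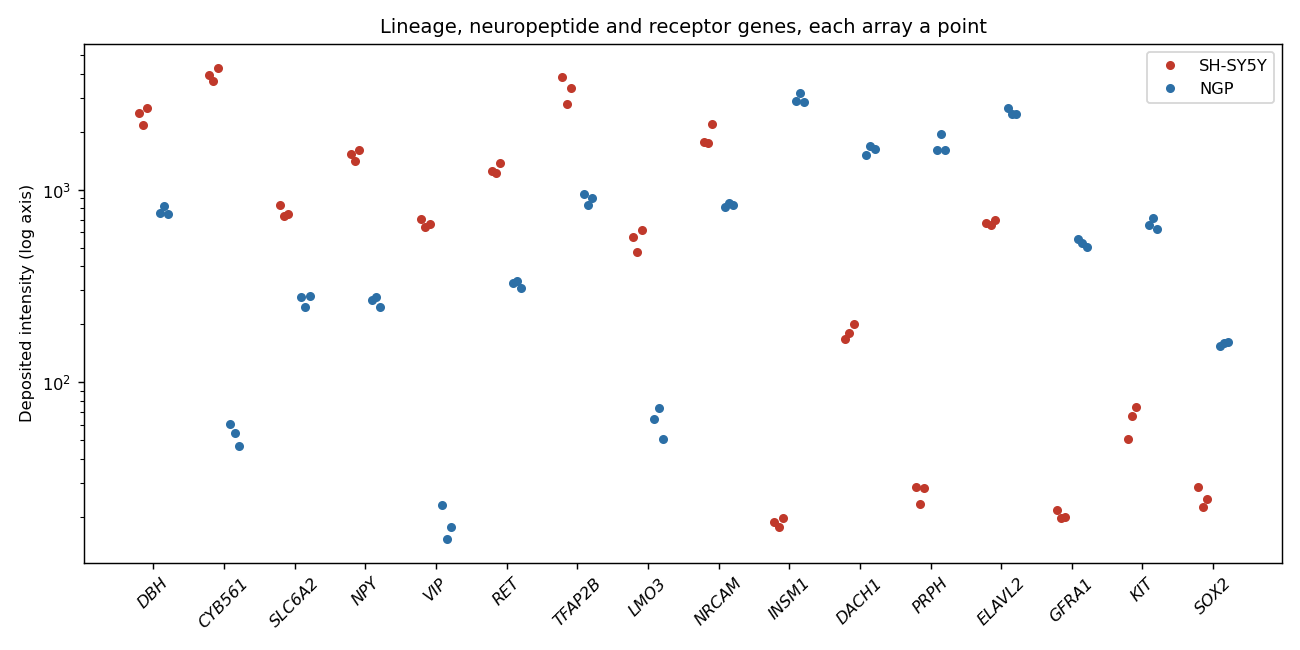
Deposited intensity, on a log axis, of 16 genes of lineage, neuropeptides and receptors on each array, SH-SY5Y in red on the left of each pair and NGP in blue on the right. The 9 genes from DBH to NRCAM are higher in SH-SY5Y and the 7 from INSM1 to SOX2 lower, with no overlap of arrays.

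Receptor tyrosine kinases and their coreceptors were more often lower than higher in SH-SY5Y. Of 29 tested 3 were higher and 8 lower, with a median of -0.16, and on the deposited scale 2 and 13. RET, the receptor for the GDNF family, had 1254, 1224 and 1381 in SH-SY5Y, against 329, 337 and 309 in NGP (2.50, moderated SE 0.05, limma adjusted p = 7.99e-18). Its coreceptors did not go together. GFRA3, the coreceptor for artemin, was higher (2.33), whereas GFRA1 had 21.7, 19.7 and 19.9 in SH-SY5Y, against 556, 528 and 501 in NGP (-4.11), and GFRA2 differed by -3.62. ALK, a driver kinase of neuroblastoma, had 515, 455 and 449 in SH-SY5Y, against 327, 238 and 356 in NGP (1.16). ALK was not called on the deposited scale, nor without NGP replicate 2 (0.96). KIT, the stem cell factor receptor, had 50.5, 66.9 and 74.4 in SH-SY5Y, against 655, 712 and 623 in NGP (-2.85). NGFR, the low-affinity neurotrophin receptor (-2.77), ERBB4 (-2.27) and FGFR2 (-1.47) were also lower.

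Output genes of the RAS-MAPK pathway went both ways. Of 22 tested 7 were higher and 4 lower, with a median of 0.60, and on the deposited scale 5 and 7. DUSP6, an ERK phosphatase induced by the pathway, had 1741, 1678 and 1606 in SH-SY5Y, against 522, 436 and 543 in NGP (2.27). ETV4 and ETV5, ETS factors, were higher by 2.26 and 1.86, with MYC and VGF, and SPRY4, a feedback inhibitor, by 1.38. SPRY4 was not called as deposited. IER3, an immediate early gene, had 23.2, 20.9 and 20.4 in SH-SY5Y, against 989, 1076 and 920 in NGP (-4.95). PHLDA1, which opposes AKT signalling, had 43.0, 39.5 and 37.7 in SH-SY5Y, against 1541, 1485 and 1467 in NGP (-4.67). EGR3 (-1.31) and EPHA4 (-1.10) were the other two lower genes. EGR3 (-0.27) and SPRY4 (0.65) were not called with averaged probe sets, nor EPHA4 with a pseudocount of 16 (-0.81). Of 12 insulin and IGF genes IRS2, an adaptor of the insulin receptor, was higher (2.07) and IGFBP5 lower (-1.69).

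Genes of axon guidance were called in both directions more often than the background of 7.24% and 7.61%. Of 45 tested 8 were higher and 12 lower, with a median of -0.10, and on the deposited scale 4 and 15. PLXNA4, a semaphorin receptor, stood at 376 ± 35.6 in SH-SY5Y and 25.1 ± 1.65 in NGP (4.37), SEMA3C at 355 ± 29.0 in SH-SY5Y and 64.6 ± 3.01 in NGP (2.96), and PLXNA2 was higher by 2.32. The coreceptors NRP2 and NRP1 were lower (-4.31 and -2.09). NRP1 was not called with averaged probe sets (-0.47) or without _s_at and _x_at probe sets (-0.86). NRP2 had 33.8, 27.2 and 33.7 in SH-SY5Y, against 873, 938 and 955 in NGP. SEMA3A (-3.36), SEMA6A (-3.22) and the adhesion proteins FLRT2 (-3.61) and FLRT3 (-2.11) were lower as well. Each line was thus bright for another set of semaphorins and receptors.

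Adhesion, matrix and channel genes were called lower more often than higher in SH-SY5Y. Of 30 cadherins and protocadherins 3 were higher and 9 lower, with a median of -0.28, of 55 matrix genes 5 and 12 (-0.16), and of 32 channel genes 4 and 7 (-0.26). On the deposited scale the counts were 2 and 11, 2 and 15, and 3 and 11. CDH2, N-cadherin, was one of the 3 higher, with 1765, 1407 and 1949 in SH-SY5Y, against 184, 188 and 166 in NGP (3.75). CELSR3, an atypical cadherin, was higher (1.72). PCDH8 had 23.4, 27.0 and 27.5 in SH-SY5Y, against 1110, 1247 and 1127 in NGP (-4.91), and PCDHB2 (-4.29), PCDH20 (-3.31), PCDHB16 (-3.03) and PCDH7 (-2.32) were lower. Of the matrix genes, LOXL1, a crosslinking enzyme (-4.66), the proteoglycans SPOCK3 (-3.91), SPOCK1 (-3.67), VCAN (-3.25) and NCAN (-2.26), and THBS1 (-1.86) were lower. ADAMTS9, a secreted protease, was higher (2.94), as was FBLN2 (1.52). TIMP2, a protease inhibitor, was called higher (1.51), but its second probe set had the opposite sign and without _s_at and _x_at probe sets its difference was -0.01. Among channels, KCNA3 (2.32), KCNK1 (1.97) and CACNA2D2 (1.89) were higher, and KCNG1 (-2.90), SCN1A (-2.74), CACNA1A (-2.31), KCND2 (-2.28) and KCNMA1 (-2.25) lower. Of 17 integrin subunits 1 was called, ITGA4 (-1.41). With averaged probe sets CELSR3 (0.75), SPOCK3 (-1.76), THBS1 (-0.49), TIMP2 (0.69), KCNMA1 (-0.82) and ITGA4 (-0.87) were not called, nor was KCNMA1 without _s_at and _x_at probe sets (-0.75).

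Developmental pathways had called members in both directions. In the NOTCH pathway 4 of 23 were higher and 7 lower, with a median of -0.11, and on the deposited scale 2 and 8. The targets HEY1 (1.79) and HES1 (1.61) were higher, as was NOTCH2 (1.11), while MFNG, a glycosyltransferase acting on NOTCH (-2.94), the neurogenic factor HES6 (-1.40), the receptor NOTCH1 (-1.14) and the ligands JAG1, JAG2 (-1.07 each) and DLL3 (-1.02) were lower. In the WNT pathway 3 of 32 were higher and 4 lower, with LGR5, the secreted inhibitor DKK1 (2.05) and the receptor FZD7 (1.93) higher and FRZB (-1.69) and SFRP1 (-1.23), also secreted inhibitors, lower. In the TGF-beta and BMP list 3 of 25 were higher and 6 lower, on the deposited scale 1 and 6. INHBE, an inhibin subunit, stood at 17.4 ± 2.69 in SH-SY5Y and 612 ± 40.1 in NGP (-4.55), TGFBR3 and BMP7 were lower (-2.04 and -1.44), and ID3, an inhibitor of bHLH factors, was higher (1.61). Of 19 tested HOX genes 1 was higher and 4 lower, as deposited 0 and 6. HOXC8 had 25.9, 27.4 and 26.0 in SH-SY5Y, against 526, 592 and 558 in NGP (-3.83), and the distal genes HOXD13 (-2.68), HOXD10 (-2.64) and HOXD11 (-2.53) were lower, while HOXD3 was higher (1.40) on the centred scale only. SOX2, a stem cell factor, was lower (-2.09) and SOX6 higher (1.76) among 10 SOX genes. With averaged probe sets HES1 (0.86), JAG1 (-0.48), DLL3 (-0.93), SFRP1 (-0.92) and SOX2 (-0.84) were not called, and SFRP1 was not called without _s_at and _x_at probe sets (-0.77). With a pseudocount of 16 NOTCH1 (-0.84), NOTCH2 (0.98) and JAG2 (-0.97) were not called, nor was JAG1 without SH-SY5Y replicate 1 (-0.98). NOTCH2 was not called as deposited either.

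Imprinted genes were more often called higher than lower in SH-SY5Y. Of 16 tested 5 were higher and 1 lower, with a median of 0.32, and on the deposited scale 4 and 1. NNAT, neuronatin, had 1119, 1075 and 1158 in SH-SY5Y, against 79.9, 73.5 and 68.4 in NGP (4.42). CDKN1C was given above, and PLAGL1, a zinc finger factor (2.93), and PEG3 (2.59) were higher. PEG3 lies inside the third zinc finger run of chromosome 19, so it counts in both. SNRPN was the lower one (-1.06). SNRPN was not called without SH-SY5Y replicate 1 (-0.99) or with a pseudocount of 16 (-0.87). With averaged probe sets the difference of PLAGL1 was 2.96, but it was not called, since neither line then reached the brightness asked for.

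Among the metabolic lists, those of arginine, nucleotide and cholesterol genes had more members lower than higher. Of 16 arginine and glutamine genes 5 were lower and 0 higher, with a median of -0.59, and on the deposited scale 10 and 0. Besides ASS1 they were the transporters SLC7A11, which imports cystine (-2.75), SLC7A5 (-1.58) and SLC7A2 (-1.53), and GOT2, the mitochondrial aspartate aminotransferase (-1.48). Of 25 genes of nucleotide, serine and one-carbon synthesis 1 was higher, TYMS, and 5 were lower, with a median of -0.53 and 13 lower as deposited. SHMT2 stood at 410 ± 36.3 in SH-SY5Y and 1609 ± 94.6 in NGP (-1.45). ADSL (-1.27), SHMT1 (-1.23), CAD, which starts pyrimidine synthesis (-1.08), and PSAT1 of serine synthesis (-1.05) were the others. Of 22 cholesterol genes 1 was higher and 4 lower, with a median of -0.38, and as deposited 1 and 10. ABCA1, the cholesterol exporter (-3.34), ABCG1 (-1.70), STARD4 (-1.36) and SREBF2, the master regulator of the pathway (-1.22), were lower, and PMVK was higher (1.59). SREBF2 lies in the run of chromosome 22 above. Of 23 genes of glucose uptake and glycolysis SLC2A1, the glucose transporter GLUT1, was higher (1.49) after centring only, and PDK1 (-1.08) and PFKP (-1.04) lower. Of 20 iron and ferroptosis genes NQO1 was higher (1.04) and SLC7A11 and LPCAT3 (-1.07) lower, with 0 higher and 9 lower as deposited. As deposited, 3.69% of all tested genes were higher and 18.1% lower. Of 13 polyamine genes PAOX was higher (1.82) and SAT1 lower (-1.05). With averaged probe sets SHMT1 (-0.98), ADSL (-0.51), STARD4 (-0.88), PDK1 (-0.80), NQO1 (0.99), LPCAT3 (-0.67), PAOX (0.90) and SAT1 (-0.42) were not called. Without _s_at and _x_at probe sets LPCAT3 (-0.83) and SAT1 (-0.53) were not called, and with a pseudocount of 16 NQO1 (0.95), LPCAT3 (-0.99) and SAT1 (-0.77) were not. Leaving out SH-SY5Y replicate 1 ended the call of PSAT1 (-0.98), replicate 2 that of PFKP (-0.99) and replicate 3 that of SAT1 (-0.98).

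Lists of basic cell functions differed little between the lines once arrays were centred. Of 70 cytosolic ribosomal protein genes and of 29 ribosome biogenesis genes limma called none, with medians of -0.01 and -0.11. The widest difference among the biogenesis genes was -0.89, in FBL, fibrillarin. On the deposited scale 4 ribosome biogenesis genes were lower and their median was -0.63, near the -0.52 of all genes. Of 49 respiratory chain genes 2 were lower (4.08%), NDUFA6 and ATP5MC1 (-1.21), with 11 lower as deposited. Of all tested genes 7.61% were lower after centring and 18.1% as deposited. Of 24 polycomb and DNA methylation regulators 1 was higher, MBD2, and 2 lower, CBX6 (-1.05) and EZH1 (-1.01). On the deposited scale 0 were higher and 6 lower, beside 3.69% and 18.1% of all tested genes. MBD2 lies in the run of chromosome 18, and its further probe set had the opposite sign. With averaged probe sets MBD2 (0.38), CBX6 (-0.48) and EZH1 (-0.61) were not called, nor was EZH1 with a pseudocount of 16 (-0.92). Without NGP replicate 1 neither CBX6 (-0.99) nor EZH1 (-0.95) was called, and EZH1 was not called without NGP replicate 3 (-0.99), SH-SY5Y replicate 2 (-0.94) or SH-SY5Y replicate 3 (-0.98).

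Genes of therapy targets and defence differed singly. Of 27 genes for GD2 synthesis and surface antigens 6 were higher and 4 lower, as deposited 3 and 7. CD99, a surface glycoprotein, had 682, 653 and 745 in SH-SY5Y, against 44.7, 58.9 and 42.6 in NGP (4.33). ST8SIA1, which makes GD3, the precursor of GD2, had 78.2, 87.8 and 109 in SH-SY5Y, against 22.5, 19.3 and 15.1 in NGP (2.74). B4GALNT1, the GD2 synthase, was not called, with 104 in SH-SY5Y and 161 in NGP (-0.11). PROM1 (-3.29) and GPC3 (-1.67) were lower. Of 10 multidrug transporters 2 were higher and 3 lower. ABCB1, P-glycoprotein, stood at 457 ± 66.9 in SH-SY5Y and 54.9 ± 5.70 in NGP (3.55), and 1 of its 2 further probe sets had the opposite sign. ABCC3 was called lower (-2.40), but without _s_at and _x_at probe sets its difference was 0.18. BCL2, which blocks apoptosis, was higher (2.33) and HRK, a BH3-only protein, lower (-1.71), among 15 tested genes of that family. Beside TNFRSF10B, CFLAR, an inhibitor of caspase-8, was higher (2.30). CASP8 itself was dim in both lines, with 37.4 ± 2.18 in SH-SY5Y and 59.1 ± 3.16 in NGP, and not called. Of 17 antigen processing genes TAP2 (1.94) and TAPBP (2.17) were higher, and a further TAPBP probe set had the opposite sign. Of 24 interferon and sensing genes HERC5 was higher (3.75), and so was OAS3, at 211 ± 17.2 in SH-SY5Y and 14.9 ± 2.62 in NGP (4.26). With averaged probe sets CFLAR (1.52), TAP2 (1.28), TAPBP (0.53) and OAS3 (2.40) were not called, nor OAS3 and TNFRSF10B (0.62) without _s_at and _x_at probe sets.

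**Figure D5:**
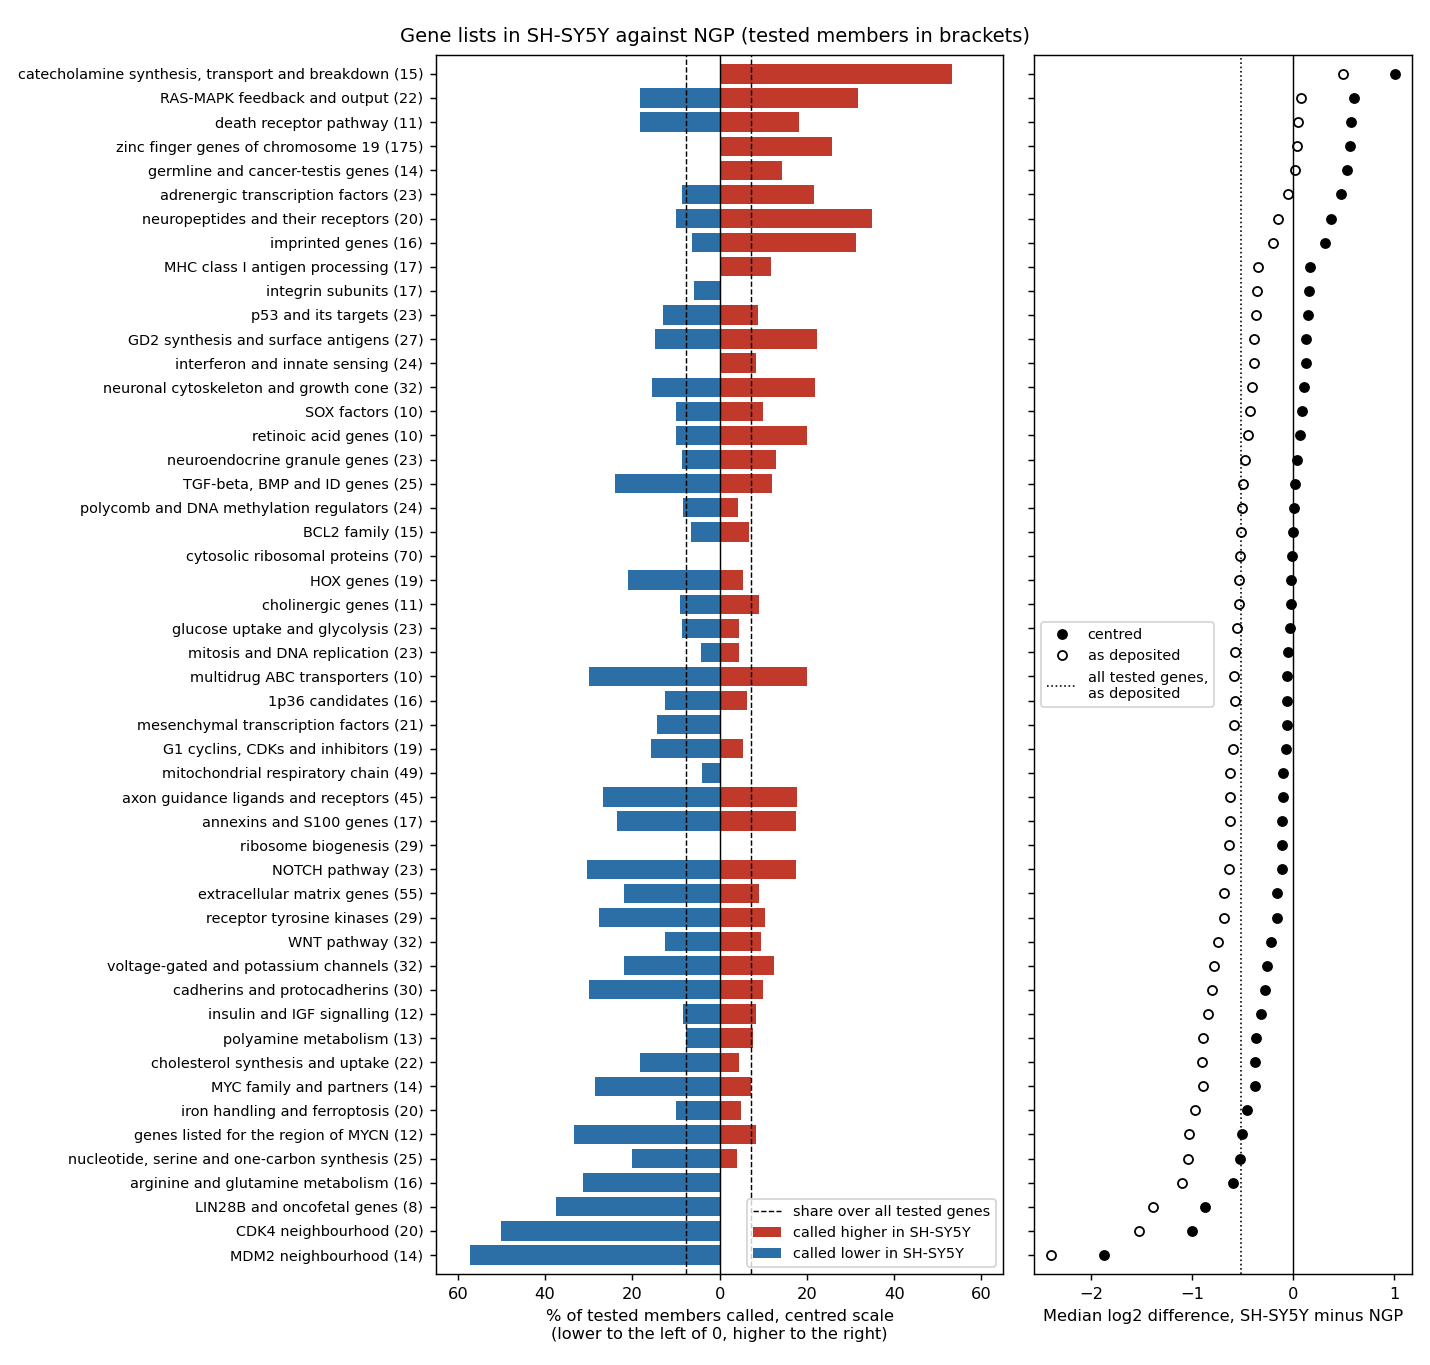
Gene lists with at least 8 tested members (number in brackets), ordered by their median. Left: share of tested members called higher (red, right of 0) and lower (blue, left of 0) in SH-SY5Y after centring, with dashed lines at the shares over all tested genes, 7.24% and 7.61%. Right: median log2 difference of the list after centring (filled) and as deposited (open), with a dotted line at -0.52, the median of all tested genes as deposited. Catecholamine genes stand at the top and the MDM2 neighbourhood at the bottom.

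The label of both lines as neuroblastoma was met by their markers. All 8 sympathetic neuroblast markers with a value reached the threshold in both lines, and their summed intensity was 22717 to 26232 in SH-SY5Y and 25237 to 27837 in NGP. Of 8 tested, DBH alone was called. Leukocyte, epithelial and endothelial markers reached the threshold in neither line, with sums of at most 212 in SH-SY5Y and 266 in NGP. Of 4 Schwann cell markers with a value and of 1 erythroid marker, 0 reached it in SH-SY5Y and 1 of each in NGP, SOX10 at 92.1 and HBB at 92.8, neither of them called. Of 6 mesenchymal markers, 3 reached it in SH-SY5Y and 5 in NGP, with sums of 1656 to 1865 in SH-SY5Y and 3339 to 3936 in NGP, and COL1A1 (-1.37) and PRRX1 were lower. COL1A1 was not called with averaged probe sets (-0.95), nor PRRX1 without _s_at and _x_at probe sets (-0.75). The part of the mesenchymal markers in the lower matrix genes was not tested.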

How the data were processed

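The authors' deposited values are intensity values on a linear scale, 1 for each of 49494 probe sets and 15 arrays. Per the submitters' processing notes MAS5 was used. How the arrays were scaled and which version served is not given in the sources used here. Of the probe sets, 45277 named 1 gene in GEO's platform annotation, 1333 several, 2682 none and 202 were controls. Probe sets with several genes were left unnamed. RefSeq tables of GRCh38.p14 gave gene order, promoters (10408 tested genes matched) and current symbols (12713 of 12721 tested genes matched).

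Values were transformed as log2(intensity + 1), which understates the change of dim genes, and each array was centred on its median tested gene. All 15 arrays were fitted in limma 3.58.1 under R 4.3.3, each line having its own mean, with a prior that follows intensity, and SH-SY5Y minus NGP was contrasted with Benjamini-Hochberg adjustment over all 12721 tested genes. The rule for genes named took the 15 widest differences in each direction among genes called on both scales, up to 6 called members a direction and the key members of each list, and up to 4 of each run. PTS and PNMT were chosen after their values were seen. Lists, rules and the comparison itself were chosen with earlier results of these data known, so no test was made over a list. Same-numbered arrays of the lines correlated at 0.23, -0.18 and -0.21 in their deviations, and arrays of different numbers at -0.19 to 0.37. With 3 arrays a line these values cannot settle whether the numbers pair the samples. The arrays were treated as unpaired. The rule for calls was also run on simulated data. Differences were planted there only in genes well above the threshold, so that run does not bear on calls with dim values.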

Additional observations from a re-analysis of the deposited data

How the results depend on the processing

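The counts of 921 higher and 968 lower genes moved with the scaling, the averaging of probe sets and the size threshold. As deposited they were 469 and 2306, and with equal ERCC medians 542 and 1817. With probe sets averaged per gene 585 were higher and 728 lower of 11651, and with a size threshold of 2 the counts were 301 and 302. Quantile normalization gave 951 and 1007, a pseudocount of 16 gave 842 and 846, no filter on low values 884 and 1013, and no _s_at or _x_at probe sets 774 and 832. Leaving out 1 array gave 916 to 943 higher and 952 to 987 lower. With the replicate block the counts were 921 and 968, the same genes, and it changed no call of the named genes. The number of runs was 16 with windows of 9 genes, 4 with windows of 25, and 11 as deposited against the median of all genes. Of 291 named genes with a call, 30 lost it as deposited, 21 with equal ERCC medians, 60 of 274 with averaged probe sets and 17 with a pseudocount of 16, and leaving out 1 array ended 2 to 5. Without _s_at or _x_at probe sets 21 of 261 lost it and 2 changed sign, TIMP2 (-0.01) and ABCC3 (0.18). Where no other value is given, the cause was not tested. With 3 arrays a line the number of arrays limits the precision, and values well under 80.6 lie near the background, so large folds against them are uncertain.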

Other observations

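Whole chromosomes also differed in their share of called genes. This was seen after the scan of neighbours, and the values are a description. Over all tested genes the shares were 7.24% higher and 7.61% lower. On chromosome 7, 92 of 601 tested genes were higher in SH-SY5Y (15.3%) and 28 lower (4.66%), with a median of 0.33. On chromosome 18, 33 of 179 were higher (18.4%) and 10 lower (5.59%), with a median of 0.39. Chromosome 12, with its 3 runs, had 30 higher (4.37%) and 112 lower (16.3%) of 687. Chromosome 13 had 9 higher (4.23%) and 33 lower (15.5%) of 213. Chromosome 22 had 7 higher (2.16%) and 40 lower (12.3%) of 324, with a median of -0.19. Others departed from the shares over all genes too. Chromosome 3 had 10.8% higher and 7.54% lower, chromosome 4 had 8.52% and 12.2%, and chromosome 19 had 9.22% and 1.74%. Copy number was not measured.

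Smaller families gave further named differences. Of 14 germline genes 2 were higher in SH-SY5Y and 0 lower, PIWIL1, a piRNA-binding protein, at 152 ± 26.5 in SH-SY5Y and 12.9 ± 1.84 in NGP (3.98), and MAGEA12 (1.87). Of 17 annexins and S100 genes 3 were higher, S100A6, ANXA4 (2.21) and ANXA2 (2.13), and 4 lower, S100A11 (-2.05), ANXA6 (-1.77), S100A4 (-1.53) and S100A13 (-1.26). ANXA2 was not called without _s_at and _x_at probe sets (0.29). Of 10 retinoic acid genes CRABP2 (2.17) and STRA6 (1.11) were higher and RDH10, which makes retinal from retinol (-1.53), lower. STRA6 was not called with averaged probe sets (0.75), without _s_at and _x_at probe sets (0.84) or without NGP replicate 3 (0.95). It was not called as deposited either. Of 16 candidates listed for 1p36, a region often lost in neuroblastoma, ID3 was higher and CASZ1 (-1.39) and DFFA (-1.21) lower. CASZ1 (-0.61) and DFFA (-0.91) were not called with averaged probe sets, nor CASZ1 without _s_at and _x_at probe sets (-0.58).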
